A study of Homo sapiens with 12 samples.

Results

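NRF2, the transcription factor encoded by NFE2L2, its inhibitor KEAP1 and 8 genes that NRF2 is known to activate (NQO1, HMOX1, TXNRD1, SRXN1, OSGIN1, PIR, AKR1C2 and AKR1C3) were followed by RNA sequencing in T47D cells. The 10 genes, chosen with earlier results of these data known, were taken by symbol from a table of 27864 genes. All 10 were among the 16081 with enough counts to be tested. T47D, an established breast cancer cell line that expresses the estrogen receptor, was used as a control line (CTRL) and as a line with a knockout of NF1 (NF1KO), the gene of neurofibromin, which switches RAS off. Each line received the vehicle DMSO or 3 µM BYL719, the PI3K alpha inhibitor alpelisib, for 48 h. There were 3 libraries of CTRL in each treatment, 2 of NF1KO in DMSO and 3 of NF1KO in BYL719, and NF1KO DMSO replicate 1 was not analysed here. How the knockout was made, whether the line is a single clone and whether replicates were separate cultures is not given in the sources used here. A p value therefore measures the spread between these libraries, and a difference between the lines cannot be put down to NF1 alone. The title of the series links loss of NF1 to resistance to PI3K alpha inhibition and to the antioxidant N-acetylcysteine. None of the groups here is labelled as given N-acetylcysteine.

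Depth ran from 53283945 to 60148876 counts per library, with 8.45% to 12.3% in 20 genes of ribosomal RNA. NF1 mRNA was at 209 to 289 CPM (counts divided by the library size in units of 1e6 counts, after scaling for composition) in CTRL DMSO and at 0.471 and 0.480 CPM in NF1KO DMSO, and at 147 to 214 and 0.400 to 0.891 CPM in BYL719. The 9 luminal epithelial markers were all present and summed to 9926 to 13997 CPM, mostly keratins. Within that list the estrogen receptor gene ESR1, PGR and FOXA1 were lower in NF1KO DMSO than in CTRL DMSO (-0.83 ± 0.09, -0.61 ± 0.13 and -0.39 ± 0.07 on the log2 scale, adjusted p = 3.11e-05, 0.00435 and 0.00112). In that comparison KRT18 (0.32), GATA3 (0.23), EPCAM (0.13), KRT19 (0.12), KRT8 (0.11) and CDH1 (0.0085) lay above 0 without a call. PGR rose under BYL719 in both lines (0.71 ± 0.11 and 0.99 ± 0.13, adjusted p = 0.000264 and 0.000434). In CTRL KRT18 (0.40), GATA3 (0.37) and CDH1 (0.17) were also called higher. Not called there were KRT19 (0.29), KRT8 (0.26), ESR1 (0.05), FOXA1 (-0.03) and EPCAM (-0.07). In NF1KO ESR1 (0.48) was also called higher. Not called there were GATA3 (0.27), CDH1 (0.08), FOXA1 (0.06), EPCAM (-0.11), KRT8 (-0.17), KRT19 (-0.17) and KRT18 (-0.19). Markers of other cell types were low, but some moved with the groups. The 4 basal markers summed to at most 1.67 CPM, with KRT17 at 1.20 to 1.38 CPM in CTRL BYL719 and at most 0.273 CPM elsewhere, and TP63 at 0.527 to 1.06 CPM in NF1KO and at most 0.275 CPM in CTRL. Of the 3 leukocyte markers, which summed to at most 2.62 CPM, CD68 gave nearly all, at 1.299 to 2.59 CPM in CTRL and 0.670 to 1.15 CPM in NF1KO. Endothelial PECAM1 was at 0 in every CTRL library and at 0.145 to 0.709 CPM in NF1KO. PTPRC, CD3E, KRT5 and CDH5 were at 0 or below 0.06 CPM in every library. The 4 mesenchymal markers, mostly the collagen gene COL1A1, summed to 52.8 to 58.7 CPM in CTRL DMSO, 29.6 to 37.5 in CTRL BYL719, 28.7 to 28.9 in NF1KO DMSO and 19.1 to 24.3 in NF1KO BYL719. The part of these markers in the results below was not tested. In RNA from bulk cultures, fewer cells that express a gene and less of its RNA per cell cannot be told apart.

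NRF2 is made continuously and, in unstressed cells, is bound by KEAP1, which hands it to a CUL3 ubiquitin ligase for destruction. When oxidants or electrophiles modify cysteines of KEAP1, NRF2 escapes, pairs with a small MAF protein and binds antioxidant response elements (AREs) near its targets. Much of this control acts on the NRF2 protein, which was not measured here. The targets reduce quinones, restore thioredoxin and peroxiredoxin, break down heme and reduce carbonyls and steroids.

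The promoters of the members were read from RefSeq (GRCh38.p14), which gave 13 windows of 300 bases, from 250 before to 50 after a transcription start, for 9 of the 10 genes. They are shown because the core of the ARE is the sequence that links these genes to NRF2. The ARE core searched was TGACNNNGC on both strands. It was found in 4 of the 13 windows, which belong to KEAP1, TXNRD1 and PIR, and in 13.3% of all 35116 promoter windows. The motif TGAGTCA, bound by AP-1 and overlapped by many AREs, was found in 2 of the 13, those of PIR and OSGIN1, and in 4.95% of all windows. Each match is given below in the direction of the gene within 30 bases, with the matching bases in capitals. The PIR match of TGACNNNGC overlaps its match of TGAGTCA.
PIR, chrX:15493288-15493317, minus strand, ARE core: gccgcgaagcGCTGAGTCAcggtgaggcta
OSGIN1, chr16:83953132-83953161, plus strand, TGAGTCA on the opposite strand: cgggcccctgcTGACTCAcgcttatgaaag
TXNRD1, upstream start, chr12:104215670-104215699, plus strand, ARE core: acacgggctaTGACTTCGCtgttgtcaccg
TXNRD1, upstream start, chr12:104215761-104215790, plus strand, ARE core: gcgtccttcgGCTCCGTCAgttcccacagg
TXNRD1, downstream start, chr12:104286920-104286949, plus strand, ARE core: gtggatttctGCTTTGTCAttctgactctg
KEAP1, chr19:10502806-10502835, minus strand, ARE core: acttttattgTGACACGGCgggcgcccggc
KEAP1, chr19:10502783-10502812, minus strand, ARE core: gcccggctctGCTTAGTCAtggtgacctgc
A match is a run of letters and not a bound site, and AREs of these genes can lie outside a window of this length.

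Between them the members spanned a wide range of levels. Per kilobase of annotated exon (GENCODE 29, all isoforms merged), NQO1 stood highest in CTRL DMSO at 101 ± 7.82 CPM per kilobase (SD, n = 3). It was followed by SRXN1 at 69.2 ± 4.09, TXNRD1 at 38.4 ± 2.24 and PIR at 26.9 ± 1.19. KEAP1 (13.98 ± 0.962), OSGIN1 (11.8 ± 1.19) and NFE2L2 (11.7 ± 1.08) lay close together, and the latter pair did not differ beyond their spread on this scale. HMOX1 stood at 5.42 ± 0.456, and AKR1C2 (0.419 ± 0.0329) and AKR1C3 (0.240 ± 0.0474) were near the bottom, with 33 to 160 counts per library. Low counts make the values of both AKR1C genes the least precise.

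**Figure D1:**
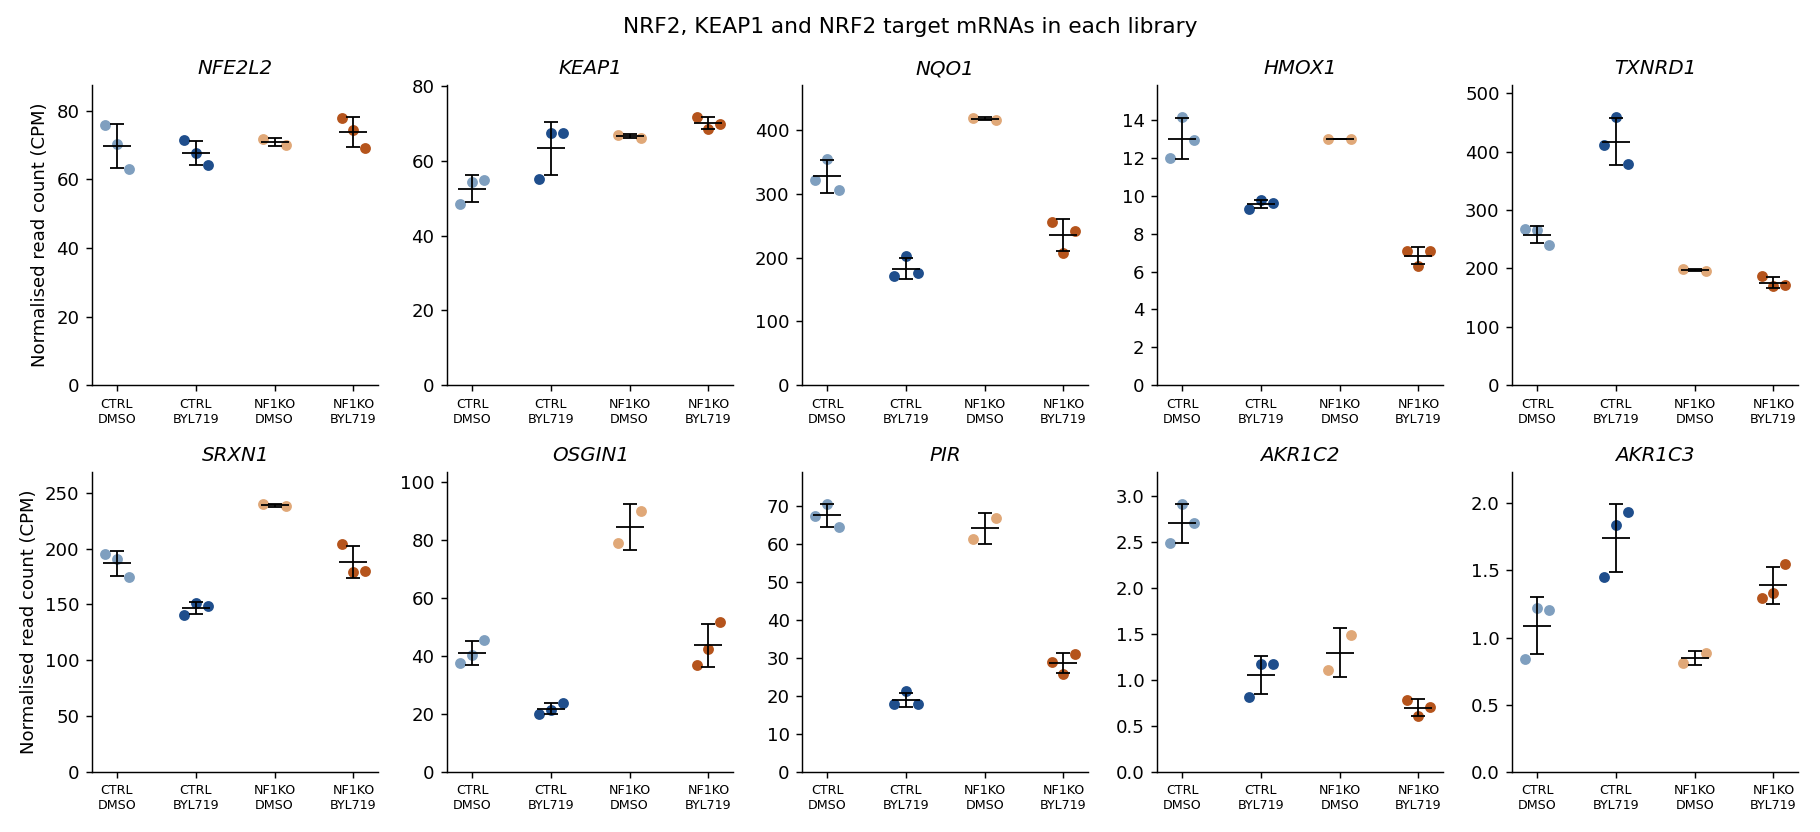
Normalised read count (CPM, linear axes from 0) of each of the 10 genes in the 11 libraries, by group; points are libraries, and bars are the mean and SD of 3 libraries (2 in NF1KO DMSO). NQO1, SRXN1, OSGIN1, PIR, HMOX1 and AKR1C2 are lower in BYL719 than in DMSO in both lines, AKR1C3 is higher, and TXNRD1 is higher in CTRL BYL719 than in any other group (380 to 459 CPM against at most 267).

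The comparison of BYL719 with DMSO asks what PI3K alpha inhibition does to these genes in each line. NRF2 mRNA itself showed no called change, while most targets fell. In CTRL, NQO1, HMOX1, SRXN1, OSGIN1, PIR and AKR1C2 fell and TXNRD1, AKR1C3 and KEAP1 rose. In NF1KO the same 6 targets fell, where 6.54% of all genes tested were called lower in both lines. AKR1C3 alone rose there, where 8.32% of all genes tested were called higher in both lines. Of all genes tested, 21.8% were called lower and 22.5% higher in CTRL, and 8.45% and 10.3% in NF1KO (adjusted p under 0.05, edgeR's quasi-likelihood test). The median log2 fold change of the members was -0.40 in CTRL and -0.59 in NF1KO, against 0.0049 and 0.01 over all genes tested. With NF1KO DMSO replicate 3 left out, so that 1 library remained in that group, 4 rather than 7 members were called in NF1KO.

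**Figure D2:**
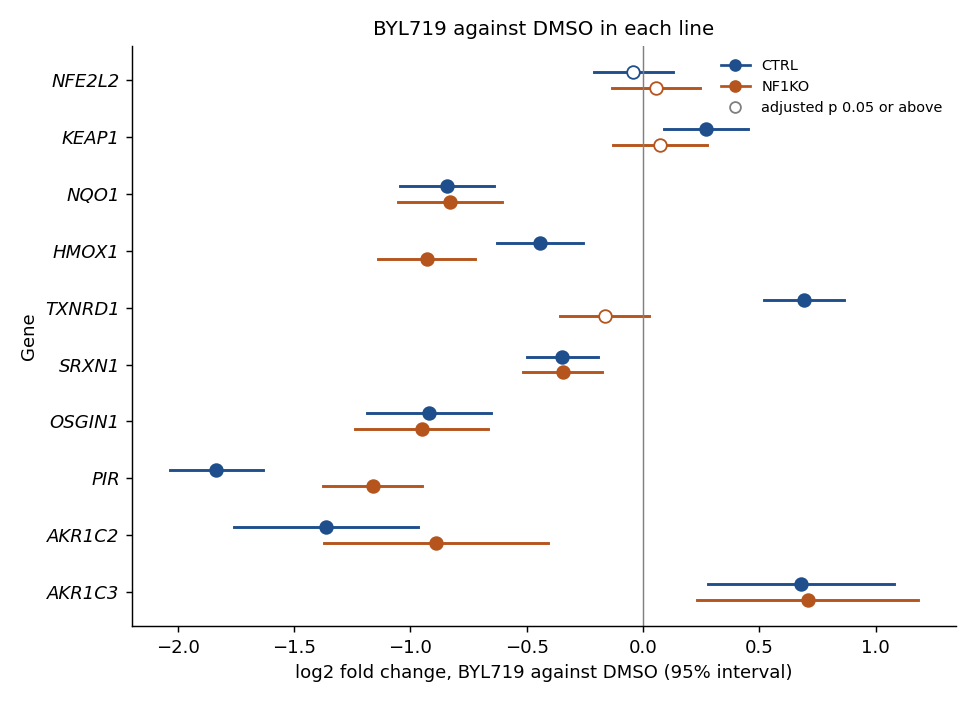
Log2 fold change of BYL719 against DMSO for the 10 genes in CTRL (blue) and NF1KO (orange); lines are 95% intervals, and open circles have an adjusted p of 0.05 or above. The 6 falling targets lie left of 0 in both lines, TXNRD1 lies at 0.69 in CTRL and -0.17 in NF1KO, and PIR reaches -1.83 in CTRL.

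NFE2L2 (Entrez 4780, chromosome 2, 177230303 to 177264727, GRCh38) encodes NRF2. Its mRNA was at 75.9, 70.3 and 63.1 CPM in the CTRL DMSO libraries and at 71.4, 67.7 and 64.1 CPM in CTRL BYL719. It was at 71.8 and 70.1 CPM in NF1KO DMSO and at 77.9, 74.4 and 69.1 CPM in NF1KO BYL719. The groups overlapped in every comparison. BYL719 changed it by -0.04 ± 0.08 on the log2 scale (± SE) in CTRL, with a 95% interval from -0.21 to 0.13, and by 0.06 ± 0.09 in NF1KO, with an interval from -0.13 to 0.25. NF1KO differed from CTRL by 0.02 ± 0.09 in DMSO (interval -0.17 to 0.21) and 0.12 ± 0.08 in BYL719 (interval -0.05 to 0.29). Adjusted p values of these 4 comparisons lay between 0.232 and 0.870, and each interval left out a change as large as that of NQO1 under BYL719.

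KEAP1 (Entrez 9817, chromosome 19, 10486125 to 10503356) encodes the adaptor that presents NRF2 for degradation. It was at 48.4, 54.4 and 55.0 CPM in CTRL DMSO and at 55.2, 67.4 and 67.6 CPM in CTRL BYL719, so that the groups only just failed to overlap. It was at 67.1 and 66.2 CPM in NF1KO DMSO and at 71.8, 68.7 and 69.9 CPM in NF1KO BYL719, above every CTRL DMSO library. BYL719 raised it by 0.27 ± 0.08 in CTRL (adjusted p = 0.0192), and NF1KO DMSO was 0.34 ± 0.09 above CTRL DMSO (adjusted p = 0.0207). In NF1KO the drug effect was 0.07 ± 0.09 (adjusted p = 0.635), and the lines differed by 0.15 ± 0.08 in BYL719 (adjusted p = 0.187). The drug call in CTRL was lost when CTRL DMSO replicate 1 (adjusted p = 0.0720) or replicate 2 (0.0768) or 3 (0.0784) of CTRL BYL719 was left out, and with only the libraries compared (0.0612). The call in DMSO was lost when CTRL DMSO replicate 1 (0.0583) or NF1KO DMSO replicate 2 (0.120) or 3 (0.106) was left out.

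NQO1 (Entrez 1728, chromosome 16, 69709401 to 69726560) is a quinone reductase and the most widely used readout of NRF2. In DMSO it was at 322, 355 and 305 CPM in CTRL and at 420 and 416 CPM in NF1KO. In BYL719 it was at 171, 202 and 175 CPM in CTRL and at 255, 208 and 242 CPM in NF1KO. Every BYL719 library lay below every DMSO library of either line, and within each treatment every NF1KO library lay above every CTRL library. The drug lowered NQO1 by nearly the same amount in both lines, with a log2 change of -0.84 ± 0.09 in CTRL (adjusted p = 1.84e-05) and -0.83 ± 0.10 in NF1KO (adjusted p = 0.000322). The difference of these effects was 0.01 ± 0.14 (interval -0.29 to 0.31). NF1KO was higher by 0.35 ± 0.10 in DMSO (adjusted p = 0.0307) and under BYL719 by 0.36 ± 0.09 (adjusted p = 0.00776). The call in DMSO was lost when CTRL DMSO replicate 1 (0.0659) or 3 (0.0948) or NF1KO DMSO replicate 2 (0.153) or 3 (0.143) was left out.

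HMOX1 (Entrez 3162, chromosome 22, 35381096 to 35394207) encodes heme oxygenase 1, which opens heme to biliverdin and which the repressor BACH1 also controls. In DMSO the lines were alike, at 11.99, 14.2 and 13.0 CPM in CTRL and 13.0 and 13.0 CPM in NF1KO. In BYL719 HMOX1 was at 9.34, 9.80 and 9.61 CPM in CTRL and at 7.08, 6.31 and 7.11 CPM in NF1KO, so that the lines were separate only under drug. The fall was -0.44 ± 0.09 in CTRL (adjusted p = 0.00116) and -0.93 ± 0.10 in NF1KO (adjusted p = 0.000104). The fall in NF1KO was the larger, with a difference of -0.49 ± 0.13 (adjusted p = 0.0332). Under BYL719, HMOX1 was lower in NF1KO with a log2 change of -0.49 ± 0.09 (adjusted p = 0.000720), and in DMSO the difference was -0.0022 ± 0.09 (interval -0.21 to 0.20). The call on the difference of the drug effects between the lines was lost with no filter on low counts (adjusted p = 0.0548) and when any of 7 libraries was left out. These were numbers 1 (0.0653) and 3 (0.0673) of CTRL DMSO, 2 (0.0757) and 3 (0.0692) of CTRL BYL719, 2 (0.137) and 3 (0.133) of NF1KO DMSO and 2 (0.0832) of NF1KO BYL719.

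TXNRD1 (Entrez 7296, chromosome 12, 104215779 to 104350307), the cytosolic thioredoxin reductase, rose in CTRL, unlike the 6 targets that fell there. In CTRL it was at 267, 266 and 241 CPM in DMSO and at 412, 459 and 380 CPM in BYL719, where all 3 libraries stood above every other library of the series. In NF1KO it was at 199 and 195 CPM in DMSO and at 187, 169 and 171 CPM in BYL719. BYL719 thus raised TXNRD1 by 0.69 ± 0.08 in CTRL (adjusted p = 2.32e-05), a 1.62-fold rise. In NF1KO the value was -0.17 ± 0.09 (adjusted p = 0.215), although the groups did not overlap. The difference of effects was -0.86 ± 0.12 (adjusted p = 0.000610). NF1KO was lower with a log2 change of -0.39 ± 0.09 in DMSO (adjusted p = 0.00883) and of -1.25 ± 0.08 under BYL719 (adjusted p = 1.51e-07), where CTRL held 2.37 times the NF1KO level. The call in DMSO was lost without NF1KO DMSO replicate 2 (adjusted p = 0.0698) or 3 (0.0909). Of the promoters printed above, those of TXNRD1 hold 3 of the 6 matches of the ARE core.

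SRXN1 (Entrez 140809, chromosome 20, 646615 to 653200) encodes sulfiredoxin, which restores over-oxidised peroxiredoxins. It was at 195, 191 and 174 CPM in CTRL DMSO and at 141, 151 and 149 CPM in CTRL BYL719. It was at 240 and 238 CPM in NF1KO DMSO and at 204, 179 and 180 CPM in NF1KO BYL719. NF1KO BYL719 libraries overlapped CTRL DMSO libraries, with a mean at 101% of the CTRL DMSO mean, while every other pair of groups was separate. SRXN1 fell with a log2 change of -0.35 ± 0.07 in CTRL (adjusted p = 0.00165) and by -0.35 ± 0.08 in NF1KO (adjusted p = 0.00956), with a difference of 0.00016 ± 0.10 (interval -0.23 to 0.23). NF1KO was higher by 0.35 ± 0.08 in DMSO (adjusted p = 0.00658) and under BYL719 by 0.35 ± 0.07 (adjusted p = 0.00148). The drug call in NF1KO (adjusted p = 0.0789 and 0.0786) and the line call in DMSO (0.0639 and 0.0567) were lost when NF1KO DMSO replicate 2 or 3 was left out. Of the 76-base stretches of SRXN1 transcripts, 84.6% also lie in the GENCODE gene AL121758.1, so that reads may have been split between them if both were in the annotation used.

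OSGIN1 (Entrez 29948, chromosome 16, 83953240 to 83966332), an oxidative stress-induced growth inhibitor, showed the largest rise in the knockout line among the members. It was at 37.3, 40.2 and 45.5 CPM in CTRL DMSO and at 78.8 and 90.0 CPM in NF1KO DMSO. Under BYL719 it was at 19.9, 21.4 and 23.7 CPM in CTRL and at 36.9, 42.4 and 51.6 CPM in NF1KO. Within each treatment the lines were separate, and the drug-treated knockout overlapped the untreated control, at 106% of its mean. NF1KO was higher by 1.04 ± 0.13 in DMSO (adjusted p = 0.000129) and under BYL719 by 1.01 ± 0.12 (adjusted p = 3.37e-05). OSGIN1 fell under drug with a log2 change of -0.92 ± 0.12 in CTRL (adjusted p = 7.64e-05) and -0.95 ± 0.13 in NF1KO (adjusted p = 0.000667), with a difference of -0.03 ± 0.18 (interval -0.42 to 0.36). Its position overlaps NECAB2, whose counts were 0.311% of its own. Clone-named GENCODE genes share 11.2% of its 76-base stretches, and 12.7% of those of NQO1 and of NFE2L2.

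PIR (Entrez 8544, chromosome X, 15384799 to 15493333) encodes pirin, an iron-binding nuclear protein, and had the largest fall of the members in CTRL. In DMSO it was at 67.5, 70.7 and 64.7 CPM in CTRL and at 61.4 and 67.0 CPM in NF1KO, which overlapped. In BYL719 it was at 17.9, 21.2 and 17.8 CPM in CTRL and at 29.1, 25.8 and 31.1 CPM in NF1KO, which were separate. BYL719 thus left 28.1% of the CTRL DMSO mean in CTRL. The fall was -1.83 ± 0.09 in CTRL (adjusted p = 3.71e-08) and -1.16 ± 0.10 in NF1KO (adjusted p = 3.48e-05), smaller in NF1KO by 0.67 ± 0.13 (adjusted p = 0.00736, and 0.0587 without NF1KO DMSO replicate 2). The lines differed by 0.60 ± 0.09 in BYL719 (adjusted p = 0.000207) and by -0.07 ± 0.10 in DMSO (adjusted p = 0.626). PIR overlaps PIR-FIGF, a gene model that joins it to the neighbouring VEGFD gene, with 65.6% of its counts over all libraries. PIR-FIGF fell alongside it, with a log2 change of -1.90 ± 0.11 in CTRL (adjusted p = 9.64e-08) and -1.14 ± 0.12 in NF1KO (adjusted p = 0.000101), and how reads within both were counted is not known.

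AKR1C2 and AKR1C3 are neighbouring aldo-keto reductases of chromosome 10 that reduce steroids and carbonyls, and they moved in opposite directions under BYL719. AKR1C2 (Entrez 1646, 4987775 to 5018000) was at 2.49, 2.92 and 2.71 CPM in CTRL DMSO and at 0.812, 1.17 and 1.17 CPM in CTRL BYL719. It was at 1.11 and 1.49 CPM in NF1KO DMSO and at 0.786, 0.602 and 0.709 CPM in NF1KO BYL719. CTRL DMSO stood above every other group. AKR1C2 fell under drug with a log2 change of -1.36 ± 0.18 in CTRL (adjusted p = 8.10e-05) and -0.89 ± 0.22 in NF1KO (adjusted p = 0.0163). It was lower in NF1KO with a log2 change of -1.06 ± 0.20 in DMSO (adjusted p = 0.00296) and under BYL719 of -0.58 ± 0.20 (adjusted p = 0.0381), while the difference of effects, 0.47 ± 0.29 (interval -0.15 to 1.10), was not called. The drug call in NF1KO was lost without NF1KO DMSO replicate 3 (adjusted p = 0.197) or NF1KO BYL719 replicate 2 (0.0621), and the line call in DMSO without NF1KO DMSO replicate 2 (0.0600). The line call in BYL719 held in 13 of 21 alternatives. It was lost with no filter (adjusted p = 0.0523), with limma-voom (0.0660), with only the libraries compared (0.0757), and when number 3 of CTRL DMSO (0.0519), 2 (0.112) or 3 (0.116) of CTRL BYL719 or 2 (0.125) or 3 (0.0771) of NF1KO BYL719 was left out.

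AKR1C3 (Entrez 8644, 5048781 to 5107686), which forms testosterone from androstenedione, was at 0.842, 1.22 and 1.21 CPM in CTRL DMSO and at 1.45, 1.84 and 1.93 CPM in CTRL BYL719. It was at 0.812 and 0.888 CPM in NF1KO DMSO and at 1.29, 1.33 and 1.55 CPM in NF1KO BYL719, and the drug-treated libraries of each line lay above its DMSO libraries. The rise was 0.68 ± 0.18 in CTRL (adjusted p = 0.00981) and 0.71 ± 0.22 in NF1KO (adjusted p = 0.0406). The lines overlapped in both treatments, with differences of -0.35 ± 0.22 in DMSO (adjusted p = 0.284) and, under BYL719, -0.33 ± 0.18 (adjusted p = 0.173, and 0.0312 without both CTRL libraries of number 1). The call in NF1KO held in 12 of 22 alternatives. It was lost with no filter (adjusted p = 0.0532), with limma-voom (0.0591), and when number 2 of CTRL DMSO (0.0515), 2 (0.0526) or 3 (0.0531) of CTRL BYL719, 2 (0.215) or 3 (0.166) of NF1KO DMSO or 1 (0.0628), 2 (0.0795) or 3 (0.0948) of NF1KO BYL719 was left out.

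The AKR1C genes share sequence, which bears on how well their reads can be told apart. Of the 76-base stretches of AKR1C2 transcripts, the read length of these libraries, 28.8% also occur in AKR1C1 and 1.78% in AKR1C3, while 2.45% of those of AKR1C3 occur in AKR1C2. AKR1C1, named here for this reason, fell in CTRL with a log2 change of -1.19 ± 0.23 (adjusted p = 0.00126). Its other values were not called, at -0.74 ± 0.27 for BYL719 in NF1KO (adjusted p = 0.0823) and -0.76 ± 0.25 and -0.31 ± 0.26 for NF1KO against CTRL in DMSO and BYL719 (adjusted p = 0.0542 and 0.373). Reads of AKR1C1 and AKR1C2 may therefore be split uncertainly, and AKR1C3 shares little with either. Over 250 bases before the start, AKR1C2 is identical to AKR1C3 in 69.6% of aligned positions at the upstream AKR1C3 start and in 70.2% at the downstream start, and the AKR1C3 promoters are identical to each other in 64.2%. The identity of unrelated promoters was not computed. The 120 bases before each start are shown because the genes responded oppositely to the drug, with a shared 12-base run, picked after reading these sequences, in capitals.
AKR1C2, chr10:5003858-5003977, minus strand: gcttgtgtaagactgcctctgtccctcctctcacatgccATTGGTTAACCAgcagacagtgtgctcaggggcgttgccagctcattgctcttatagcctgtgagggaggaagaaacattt
AKR1C3 upstream start, chr10:5048661-5048780, plus strand: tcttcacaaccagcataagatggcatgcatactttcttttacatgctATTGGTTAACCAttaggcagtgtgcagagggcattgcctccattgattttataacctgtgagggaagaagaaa
AKR1C3 downstream start, chr10:5094294-5094413, plus strand: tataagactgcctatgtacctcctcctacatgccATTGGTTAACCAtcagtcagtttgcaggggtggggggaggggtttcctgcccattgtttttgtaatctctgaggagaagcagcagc
That run occurs in 5 of 35116 promoter windows, those of AKR1C1, AKR1C2, AKR1C3 and PPFIA2. Neither TGACNNNGC nor TGAGTCA occurs in the windows of AKR1C2 and AKR1C3.

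The comparison of NF1KO with CTRL asks how the lines differ in each treatment. In DMSO, OSGIN1, SRXN1, NQO1 and KEAP1 were higher in NF1KO and AKR1C2 and TXNRD1 lower, where 9.98% of all genes tested were called higher and 10.3% lower. In BYL719, OSGIN1, PIR, NQO1 and SRXN1 were higher and TXNRD1, AKR1C2 and HMOX1 lower, where 20.8% of all genes were called higher and 19.0% lower. OSGIN1, SRXN1, NQO1, TXNRD1 and AKR1C2 were called in the same direction in both treatments, where 7.19% of all genes tested were called higher in both and 7.95% lower in both. The median of the members was 0.01 in DMSO and 0.13 in BYL719, against -0.01 and -0.0025 over all genes. In fits without NF1KO DMSO replicate 2 or 3, 1 and 2 members were called in DMSO rather than 6.

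**Figure D3:**
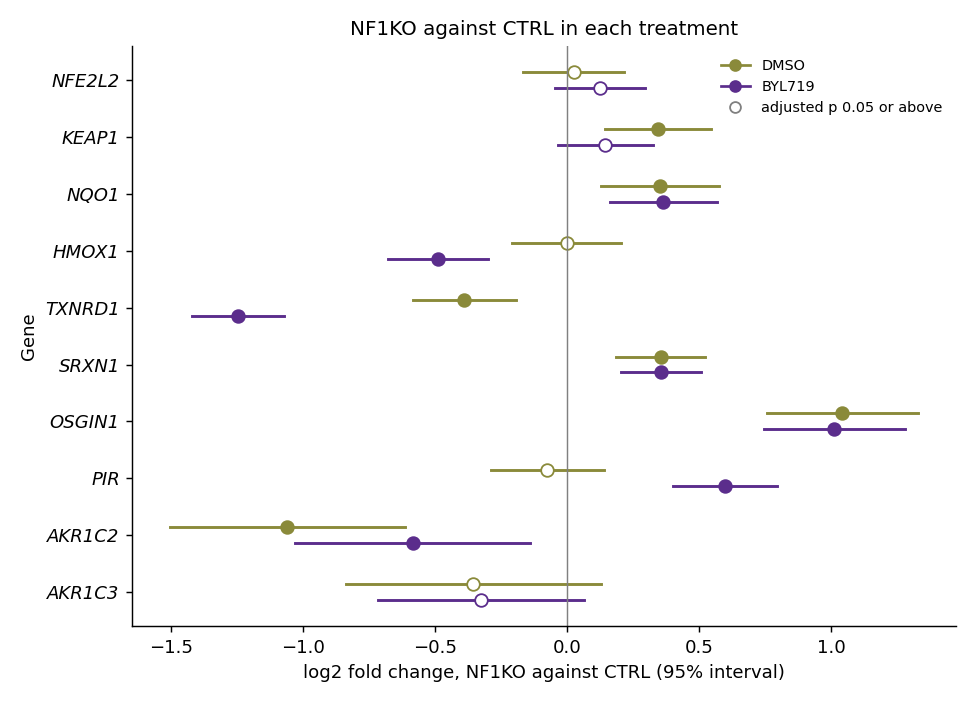
Log2 fold change of NF1KO against CTRL for the 10 genes in DMSO (olive) and BYL719 (purple); lines are 95% intervals, and open circles have an adjusted p of 0.05 or above. NQO1, SRXN1 and OSGIN1 lie right of 0 by similar amounts in both treatments, whereas HMOX1, TXNRD1 and PIR lie apart between treatments.

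The 5th comparison, of the drug effect in NF1KO with that in CTRL, asks whether the knockout line responds as the control does. It was called for 3 of the 10 members, PIR upward and TXNRD1 and HMOX1 downward, where 5.70% of all genes were called upward and 3.68% downward. Only TXNRD1 was called without NF1KO DMSO replicate 2. For NQO1, SRXN1 and OSGIN1 the effects differed by 0.03 or less on the log2 scale, with 95% intervals that reached 0.42 at most in size. For the others the difference was 0.10 ± 0.12 for NFE2L2 (interval -0.16 to 0.35), -0.20 ± 0.12 for KEAP1 (interval -0.47 to 0.07), 0.03 ± 0.28 for AKR1C3 (interval -0.59 to 0.64) and, as above, 0.47 for AKR1C2.

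Other NRF2 targets were read from a list of 42 genes, of which 35 had enough counts to be tested. The list was chosen with earlier results of these data known, so its shares are not independent of them. In CTRL, 23 of the 35 (65.7%) fell under BYL719 and 5 (14.3%) rose, with a median of -0.40, against 21.8% and 22.5% of all genes tested. In NF1KO, 18 (51.4%) fell and 2 (5.71%) rose, with a median of -0.37, against 8.45% and 10.3% of all genes (9 genes called in all without NF1KO DMSO replicate 3). Called lower in both lines were 16 genes, that is 16 of 23 in CTRL and 16 of 18 in NF1KO, where 6.54% of all genes tested were called lower in both. In CTRL the smallest p values belonged to HTATIP2 (-1.13 ± 0.07, adjusted p = 2.15e-07), the carbonyl reductase CBR3 (-1.55 ± 0.13, adjusted p = 2.34e-06), UGDH (1.00 ± 0.09, adjusted p = 2.80e-06), which makes the sugar donor for glucuronidation, and TKT (-0.63 ± 0.06, adjusted p = 4.93e-06). In NF1KO, among those with the smallest p values were TKT (-0.75 ± 0.06, adjusted p = 4.32e-05), a transketolase of sugar phosphate metabolism, HTATIP2 (-0.81 ± 0.08, adjusted p = 8.67e-05) and IDH1 (-0.55 ± 0.08, adjusted p = 0.00112), an isocitrate dehydrogenase that yields NADPH. The cystine transporter SLC7A11, chosen after its values were seen, went from 28.02, 14.2 and 13.5 CPM to 6.87, 3.999 and 4.16 CPM in CTRL and from 45.5 and 46.2 CPM to 14.3, 9.30 and 9.05 CPM in NF1KO.

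**Figure D4:**
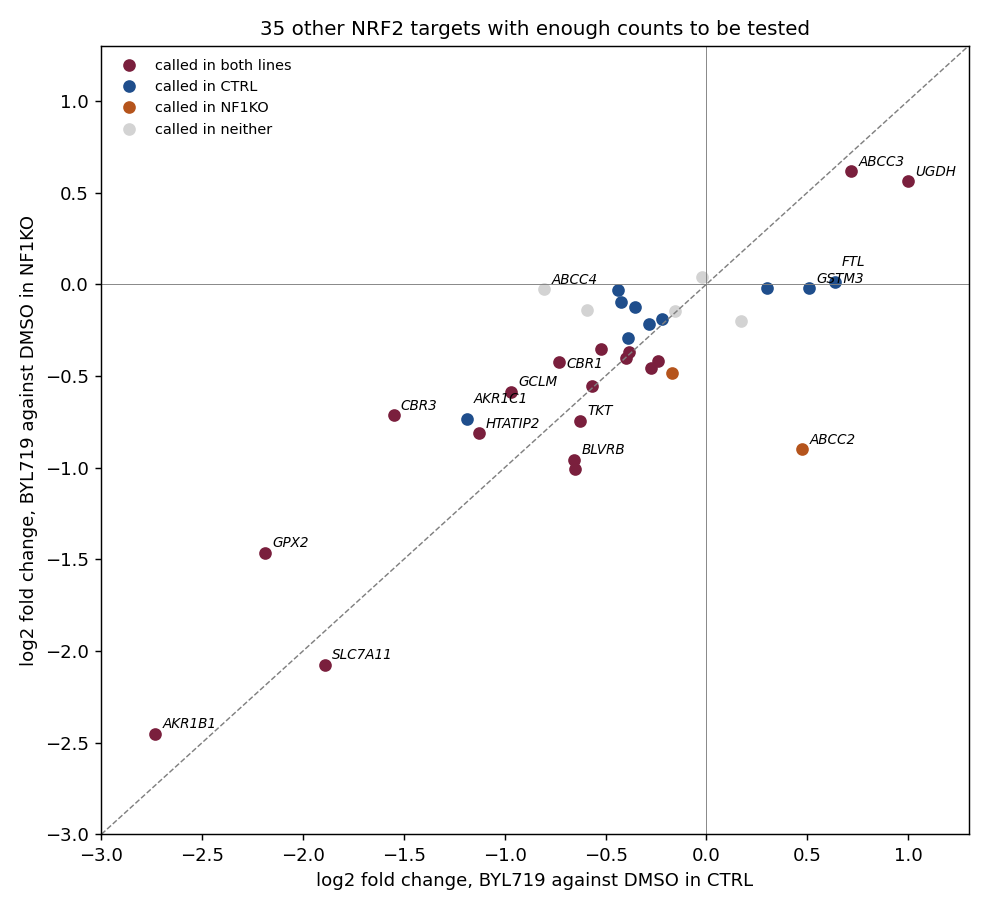
Log2 fold change of BYL719 against DMSO in NF1KO (vertical) against that in CTRL (horizontal) for the 35 tested genes of the list of other NRF2 targets; each point is a gene, some of them named, coloured by the line in which it was called, and the dashed line marks equal change. Most points lie below 0 on both axes, with AKR1B1, GPX2 and SLC7A11 lowest and UGDH and ABCC3 above 0 in both lines. AKR1B1 and GPX2 had few counts. They were at most 0.344 and 1.15 CPM in DMSO, and at most 0.0677 and 0.293 CPM in BYL719.

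Between the lines the same list was split. In DMSO, 7 of the 35 were higher in NF1KO and 4 lower, and in BYL719 7 were higher and 5 lower, with medians of 0.06 and 0.08. In DMSO that is 20.0% higher and 11.4% lower, against 9.98% and 10.3% of all genes tested. In BYL719 it is 20.0% and 14.3%, which is near or below the 20.8% and 19.0% of all genes. Among those called in DMSO with the smallest p values were the efflux transporter ABCC3 (1.73 ± 0.19, adjusted p = 3.43e-05), the glutathione transferase GSTM3 (-1.24 ± 0.15, adjusted p = 7.23e-05) and the glutathione reductase GSR (-0.48 ± 0.09, adjusted p = 0.00165). In BYL719 they were GSTM3 (-1.77 ± 0.13, adjusted p = 4.30e-07), ABCC3 (1.63 ± 0.17, adjusted p = 7.37e-06), GSR (-0.66 ± 0.08, adjusted p = 2.15e-05) and CBR3 (1.10 ± 0.13, adjusted p = 3.86e-05). With NF1KO DMSO replicate 2 or 3 left out, 5 and 7 genes of the list were called in DMSO rather than 11. The drug effect differed between the lines for CBR3 (0.84 ± 0.19, adjusted p = 0.0172), the efflux transporter ABCC2 (-1.37 ± 0.38, adjusted p = 0.0422), the lipid hydrolase ABHD4 (-0.32 ± 0.09, adjusted p = 0.0422) and the ferritin light chain FTL (-0.62 ± 0.18, adjusted p = 0.0474). That is 2.86% of the tested list upward and 8.57% downward, against 5.70% and 3.68% of all genes tested. Without NF1KO DMSO replicate 2, or without replicate 3, none of these 4 differences was called (0.0824, 0.120, 0.204 and 0.174, and 0.0760, 0.150, 0.145 and 0.133). The list's count of 4 was 2 without CTRL DMSO replicate 1, CTRL BYL719 replicate 3 or NF1KO BYL719 replicate 1, 1 without CTRL DMSO replicate 2 or 3 or NF1KO BYL719 replicate 2, and 7 without CTRL BYL719 replicate 1.

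The partners, repressors and turnover factors of NRF2 form a list of 24 genes, also chosen with earlier results known and all of them tested. Under BYL719 8 rose and 4 fell in CTRL and 3 rose and 3 fell in NF1KO, with medians of 0.12 and 0.02. In CTRL that is 33.3% higher and 16.7% lower, against 22.5% and 21.8% of all genes tested, and in NF1KO 12.5% each way, against 10.3% and 8.45%, so that the counts of this list lay near those of all genes. BACH1, which competes with NRF2 for AREs and represses HMOX1, went from 53.7, 59.6 and 56.2 CPM to 87.6, 87.8 and 86.8 CPM in CTRL. In NF1KO it went from 70.4 and 62.9 CPM to 104, 102 and 84.5 CPM. These were rises of 0.63 ± 0.08 (adjusted p = 7.31e-05) and 0.54 ± 0.09 (adjusted p = 0.00247). Without NF1KO DMSO replicate 3 the rise in NF1KO was 0.45 and no longer called. BACH1 was the only gene of these 24 called higher in both lines, where 8.32% of all genes tested were called higher in both. The small MAF partner MAFF rose in CTRL by 1.03 ± 0.16 (adjusted p = 0.000285) and the kinase CDK20 by 0.68 ± 0.11 (adjusted p = 0.000393). Of the other small MAF genes, MAFK rose in CTRL (0.34 ± 0.09, adjusted p = 0.00865) and MAFG fell (-0.40 ± 0.10, adjusted p = 0.00482). PGAM5, a mitochondrial phosphatase bound by KEAP1, fell with a log2 change of -0.44 ± 0.07 in CTRL (adjusted p = 0.000241) and -0.38 ± 0.08 in NF1KO (adjusted p = 0.00480, and 0.0694 without NF1KO DMSO replicate 3). In NF1KO the NRF2 relative NFE2L3 rose by 0.51 ± 0.12 (adjusted p = 0.00975) and the KEAP1-binding peptidase DPP3 fell with a log2 change of -0.32 ± 0.07 (adjusted p = 0.0122). Without NF1KO DMSO replicate 2 or 3 both were lost (0.0859 and 0.0838 for NFE2L3, 0.0880 and 0.0844 for DPP3), and without replicate 3 no gene of this list was called, against 2 without replicate 2.

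Between the lines, 4 of the 24 were higher in NF1KO and 1 lower in DMSO, and 4 were higher and 4 lower in BYL719. That is 16.7% and 4.17% in DMSO, against 9.98% and 10.3% of all genes tested, and 16.7% each way in BYL719, below the 20.8% and 19.0% of all genes. NFE2L3 was lower with a log2 change of -1.41 ± 0.12 in DMSO (adjusted p = 3.18e-06) and under BYL719 of -0.92 ± 0.10 (adjusted p = 1.10e-05). The small MAF genes MAFF and MAFG and the repressor gene BACH2 were called higher in both treatments. MAFF was at 0.620 to 0.817 CPM in CTRL DMSO and 1.56 and 1.64 CPM in NF1KO DMSO, a difference of 1.19 ± 0.18 (adjusted p = 0.000455), and differed by 0.57 ± 0.15 in BYL719 (adjusted p = 0.00762). MAFG differed by 0.60 ± 0.10 in DMSO (adjusted p = 0.00145) and under BYL719 by 0.75 ± 0.10 (adjusted p = 5.18e-05). BACH2 was higher in DMSO by 1.22 ± 0.27 (adjusted p = 0.00692, and 0.0702 without NF1KO DMSO replicate 3) and under BYL719 by 0.68 ± 0.22 (adjusted p = 0.0259), where the groups overlapped and no alternative was run, and the NRF2 relative NFE2L1 was lower in BYL719 with a log2 change of -0.29 ± 0.07 (adjusted p = 0.00820). The count of 5 in DMSO was 3 without NF1KO DMSO replicate 3, and the count of 8 in BYL719 was 4 without CTRL BYL719 replicate 3 and 5 without NF1KO BYL719 replicate 2. For the difference of drug effects, 4.17% of the list was called downward and 0.00% upward, against 3.68% and 5.70% of all genes tested. SQSTM1, which encodes the autophagy receptor p62 that draws KEAP1 away from NRF2, was the only gene of the list whose drug effect differed between the lines. The effect in NF1KO less that in CTRL was -0.44 ± 0.10 (adjusted p = 0.0189), a call lost without NF1KO DMSO replicate 2 (0.0877) or 3 (0.0954) or NF1KO BYL719 replicate 2 (0.0558).

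Over the 11 libraries, among the genes whose log2 CPM followed NQO1 most closely, of 11079 candidates, were ANXA7 and PSMA1, each with a Pearson correlation of 0.988. Those most like TXNRD1 were NUPR1 (0.992), SPNS2 (0.983) and PAK2 (0.982). NUPR1, a small stress-induced nuclear protein, had group means of 54.2 CPM in CTRL DMSO, 91.8 in CTRL BYL719, 41.0 in NF1KO DMSO and 36.3 in NF1KO BYL719, the same order of groups as TXNRD1. These correlations describe 11 libraries of 4 groups that share their lines and treatments, and carry no test.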

How the data were processed

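Stranded poly(A) libraries were read as single reads of 76 bases, per the labels' protocols. The authors deposited raw read counts per Entrez gene, and the submitters' processing notes name STAR 2.5.2a, SAMtools 1.7, Picard 2.9.2, edgeR and hg38. The counting tool, its strand setting and the annotation are not given in the sources used here. The libraries held 53283945 to 60148876 counts.

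The analysis used edgeR 4.0.16 in R 4.3.3, with filterByExpr, TMM scaling and a quasi-likelihood model of 4 groups with 7 residual degrees of freedom, in 2-sided tests of 5 comparisons. Benjamini-Hochberg adjustment ran over all 16081 genes tested, with calls at adjusted p under 0.05. Each SE is the absolute log2 fold change over the root of F. Alternatives included DESeq2 1.42.0 and limma-voom (limma 3.58.1). The steps were tested on simulated counts. Figures were drawn with matplotlib 3.10.9.

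The members and lists were chosen with earlier results of these data known. Named were all members, up to 4 called genes per list and comparison by adjusted p, genes that overlap a member and, for NQO1 and TXNRD1, the 3 most correlated genes with a mean log2 CPM (prior count 2) of at least 2. Some genes that this rule names are not reported here.

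Deviations from the group means correlated across genes between same-numbered CTRL DMSO and CTRL BYL719 libraries at 0.595, 0.337 and 0.318. Of the CTRL pairs of unlike number, DMSO 2 with BYL719 3 was at 0.228 and DMSO 3 with BYL719 2 at 0.177. Those with a library of number 1 were at -0.419 to -0.362. Number 1 thus stood apart, and a pairing of numbers 2 and 3 is less clear. The main model did not use these numbers. The labels do not say what a number stands for.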

Additional observations from a re-analysis of the deposited data

Results flagged for a closer look

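For 3 members the effect of BYL719 differed between the lines by the test of the difference itself. TXNRD1 had a lower effect in NF1KO, with a difference of -0.86 on the log2 scale (adjusted p = 0.000610), with 3 of 3 CTRL BYL719 libraries above all CTRL DMSO libraries and 3 of 3 NF1KO BYL719 libraries below both NF1KO DMSO libraries. PIR had an effect higher in NF1KO by 0.67 (adjusted p = 0.00736), and fell in both lines. HMOX1 had a lower effect in NF1KO, with a difference of -0.49 (adjusted p = 0.0332), and fell in both lines.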

How the results depend on the processing

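Of the members' log2 fold changes under each alternative, 214 of 220 kept their direction and side of the threshold for BYL719 in CTRL, 205 of 220 for BYL719 in NF1KO, 190 of 210 between the lines in DMSO, 201 of 210 between the lines in BYL719 and 166 of 210 for the difference of effects. Leaving out each library in turn gave 8 to 9, 4 to 7, 1 to 6, 6 to 7 and 1 to 3 members called in these comparisons. Leaving out an NF1KO DMSO library leaves 1, whose spread was taken to equal that of the other groups. Values that changed sign were all of comparisons without a call. HMOX1 between the lines in DMSO was 0.00086 with RLE scaling, 0.0011 with DESeq2, 0.0021 with limma-voom, 0.0027 with only the libraries compared and -0.057 to 0.062 with each library left out. NFE2L2 ranged from -0.12 to 0.019 for BYL719 in CTRL and from -0.044 to 0.092 between the lines in DMSO when each library was left out. For the difference of effects, NQO1 was -0.0018 with RLE scaling and with DESeq2, -0.055 with the replicate block within each line, -0.019 without both CTRL libraries of number 1 and -0.051 to 0.094 with each library left out. SRXN1 was -0.014 with RLE scaling and with DESeq2, -0.0030 with upper-quartile scaling, -0.0012 with the filter of 1 CPM in 3 libraries, -0.0038 with limma-voom, -0.025 with the replicate block, -0.065 with the block within each line, -0.058 without both CTRL libraries of number 1 and -0.064 to 0.053 with each library left out. OSGIN1 was 0.039 with the replicate block, 0.073 with the block within each line and -0.17 to 0.077 with each library left out, and AKR1C3 ranged from -0.088 to 0.19. The cause of these changes was not tested.

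With the replicate block over all libraries, 9, 7, 6, 7 and 3 members were called in the 5 comparisons, as without it. Within each line, 9, 8 and 4 were called for BYL719 in CTRL, BYL719 in NF1KO and the difference of effects. In this setting the term for NF1KO number 1 held only a BYL719 library and took it up. The NF1KO effect therefore compared 2 BYL719 libraries with 2 DMSO libraries. The calls gained were TXNRD1 in NF1KO (-0.21, adjusted p = 0.00393) and KEAP1 for the difference (-0.21, adjusted p = 0.0309). The 2 NF1KO pairs of equal number correlated at 0.0838 and 0.149. With 2 NF1KO DMSO libraries the deviations from their mean mirror each other, so these values cannot decide whether numbers pair the NF1KO libraries. For BYL719 in CTRL, 7130 of all genes were called, 8523 with the block and 10194 with the block within each line. Over all genes, 3008 were called for BYL719 in NF1KO, 4713 with the block, 6737 with the block within each line, 5317 without both CTRL libraries of number 1, 1796 without NF1KO BYL719 replicate 2, and 1071 and 800 without NF1KO DMSO replicate 2 or 3. Between the lines in DMSO 3269 were called, and 1570 and 1531 without these libraries. For the difference 1508 were called, 4332 with the block within each line, 2421 without both CTRL libraries of number 1, and 779 and 744 without NF1KO DMSO replicate 2 or 3. Of the other NRF2 targets, 4 were called for the difference, 9 with DESeq2, 10 with the block, 16 with the block within each line and 8 without both CTRL libraries of number 1. Of the partners, repressors and turnover factors, 12, 6 and 1 were called for BYL719 in CTRL, BYL719 in NF1KO and the difference, 19, 12 and 6 with the block within each line, and for the difference 2 with the block, with the filter of 1 CPM and without CTRL DMSO replicate 3. At 33 to 160 counts per library, AKR1C2 and AKR1C3 were the members most limited by depth.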

Other observations

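Of the list of other NRF2 targets, 7 genes had too few counts to be tested: AKR1B10, GSTP1, ALDH3A1, CES1, CYP4F11, LUCAT1 and NR0B1. ALDH3A1 was at 0.157 CPM at most and the others below 0.1 CPM in every library. GSTP1, a glutathione transferase abundant in many tissues, was thus near 0 in both lines and both treatments.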
